A study of Mus musculus with 13 samples.

Results

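Antibody transcripts in mouse aorta were described here through the gene segments that encode them. The genes were chosen by name and by level: immunoglobulin heavy, kappa and lambda variable (V) and constant genes, plus Jchain and Mzb1, with a summed count of 20 or more over the 13 libraries. This rule took 101 of the 56,953 genes of the table. They were 34 heavy V segments, 51 kappa V segments, 2 lambda V segments, 7 heavy constant genes, 4 light constant genes, Jchain and Mzb1, and Ighmbp2. Ighmbp2 encodes a helicase and not an antibody; only its symbol fits the name pattern, so it was kept out of every sum, which leaves 98 immunoglobulin genes. In all, 382 genes matched the names, of which 186 had no count in any library and 95 had some counts but fewer than the minimum. No D segment, nor Ighe (the IgE heavy chain) or Iglc4, reached it.

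The animals were ApoE-/- mice, which lack apolipoprotein E and develop atherosclerosis. All of them ate a Western diet (WD) for 16 weeks from an age of 6 weeks, and the control group had no other treatment (WD, 5 libraries). The other groups received auranofin at 3 mg/kg/day (3 libraries), atorvastatin at 10 mg/kg/day (3 libraries), or both at these doses (the combination, 2 libraries). Auranofin is a gold drug for rheumatoid arthritis, atorvastatin is a cholesterol-lowering statin, and the study asked how auranofin bears on the progression of the disease. RNA came from the whole aorta, so it mixes the vessel wall with whatever blood, fat or lymphoid tissue stayed attached. Libraries are named by group and replicate number (WD 1 to 5, auranofin 1 to 3 and so on). The labels tie no library to a named animal, so every p-value here measures only the spread between these samples.

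The 13 libraries held 19,703,683 to 26,079,566 counts. All 5 smooth muscle genes of a fixed list had counts in every library and summed to 5754 to 25329 CPM (counts per 1,000,000 counts of the TMM-scaled library size), which fits the labelled tissue. The lowest of these sums was that of auranofin 2. That library also had the highest share of mitochondrial counts (38.8%; 9.36% to 26.9% elsewhere) and the lowest TMM scaling factor (0.629), and it stood apart in the antibody genes, as described below. Each result that rests on it is therefore given with and without it.

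An antibody is built from heavy and light chains. In each B cell, recombination joins V, J and (for heavy chains) D segments, and the transcript carries them together with a constant region. All B cells of a clone thus use the same V segments. Resting B cells carry IgM and IgD on their surface. After activation a B cell can switch from IgM to IgG, IgA or IgE, and it can mature into a plasma cell, which devotes much of its RNA to secreted antibody. Jchain encodes the joining chain that links IgM and IgA into polymers, and Mzb1 encodes a chaperone of antibody assembly. In atherosclerosis, B cells and plasma cells are known mainly from the outer layer of the aorta and the lymphoid clusters beside it.

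The V segments that led the counts of individual libraries are shown first, because several of them had most of their counts in 1 library. Each line gives the last 90 bases of the germline segment, 5′ to 3′, from the GENCODE M21 transcripts; the capitals mark the codon of the conserved cysteine with which the third complementarity-determining region, the most variable part of the antigen-binding site, begins. Auranofin 2 was led by Ighv1-9, Igkv5-39 and Igkv10-96, and auranofin 3 by Ighv1-18 and Igkv4-79. Combination 1 was led by Ighv1-5 and Igkv13-84, atorvastatin 1 by Ighv1-26 and Igkv3-2, and WD 2 by Ighv1-53 and Igkv8-19.
Ighv1-9: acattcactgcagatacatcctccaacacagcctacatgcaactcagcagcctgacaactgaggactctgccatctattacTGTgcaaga
Ighv1-18: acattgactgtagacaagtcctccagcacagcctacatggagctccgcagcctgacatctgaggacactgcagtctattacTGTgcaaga
Ighv1-26: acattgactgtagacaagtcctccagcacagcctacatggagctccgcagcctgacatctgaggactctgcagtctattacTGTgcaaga
Ighv1-5: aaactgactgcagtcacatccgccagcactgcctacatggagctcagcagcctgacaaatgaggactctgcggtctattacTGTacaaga
Ighv1-53: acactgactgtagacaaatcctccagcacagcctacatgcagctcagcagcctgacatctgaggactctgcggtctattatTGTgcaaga
Igkv5-39: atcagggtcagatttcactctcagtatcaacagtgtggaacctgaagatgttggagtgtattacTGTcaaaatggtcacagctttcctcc
Igkv10-96: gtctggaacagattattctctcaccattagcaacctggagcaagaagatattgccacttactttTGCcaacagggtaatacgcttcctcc
Igkv4-79: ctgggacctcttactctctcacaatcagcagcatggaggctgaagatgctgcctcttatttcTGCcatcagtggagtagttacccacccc
Igkv13-84: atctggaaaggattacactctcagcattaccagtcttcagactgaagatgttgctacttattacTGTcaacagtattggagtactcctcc
Igkv3-2: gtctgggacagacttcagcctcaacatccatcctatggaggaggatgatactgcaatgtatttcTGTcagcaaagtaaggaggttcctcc
Igkv8-19: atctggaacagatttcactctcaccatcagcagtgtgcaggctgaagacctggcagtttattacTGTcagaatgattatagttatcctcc
The heavy segments end 6 bases after that codon, while the kappa segments printed here run on for 23 to 25 bases.

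V segments resemble each other closely, which limits how surely a read can be given to one of them. A sequence was found for all 87 V segments among the members, and each was compared with the other segments of its own locus over the last 270 bases. The nearest neighbour was 95.6% identical in the median, from 57.0% to 100%, and 52 of the 87 had a neighbour at 95% or more. Ighv1-18 and Ighv1-26 differ at 7 of the 270 positions (97.4% identity), Igkv13-84 and Igkv13-85 at 8, and Igkv8-19 and Igkv8-28 at 6. Ighv1-5 stands further off, at 34 differences from Ighv1-12. How the counting treated reads that fit several genes is not given in the sources used here, and mutated V regions may lie further from the germline, so counts of single V segments are uncertain.

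Antibody RNA was low in 12 of the 13 aortas and high in 1. The 98 immunoglobulin genes summed to 30.6, 86.7, 31.3, 46.8 and 56.4 CPM in WD 1 to 5, to 45.0, 35.8 and 89.9 in atorvastatin 1 to 3, to 71.0 and 28.2 in combination 1 and 2, and to 40.8, 2324 and 86.7 in auranofin 1 to 3. Auranofin 2 was 25.9 times the next highest library. It held 35,277 of the 50,829 immunoglobulin counts (69.4%), which was 0.146% of all its counts, against 0.00303% to 0.00988% in the others. The other auranofin libraries lay within the WD range on the TMM scale. Per 1,000,000 counts of the library total instead, auranofin 3 stood at 98.8 and auranofin 1 at 40.7, against 32.1 to 57.6 in WD. In RNA from a whole tissue, more antibody-making cells cannot be told from more antibody RNA per cell.

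**Figure D1:**
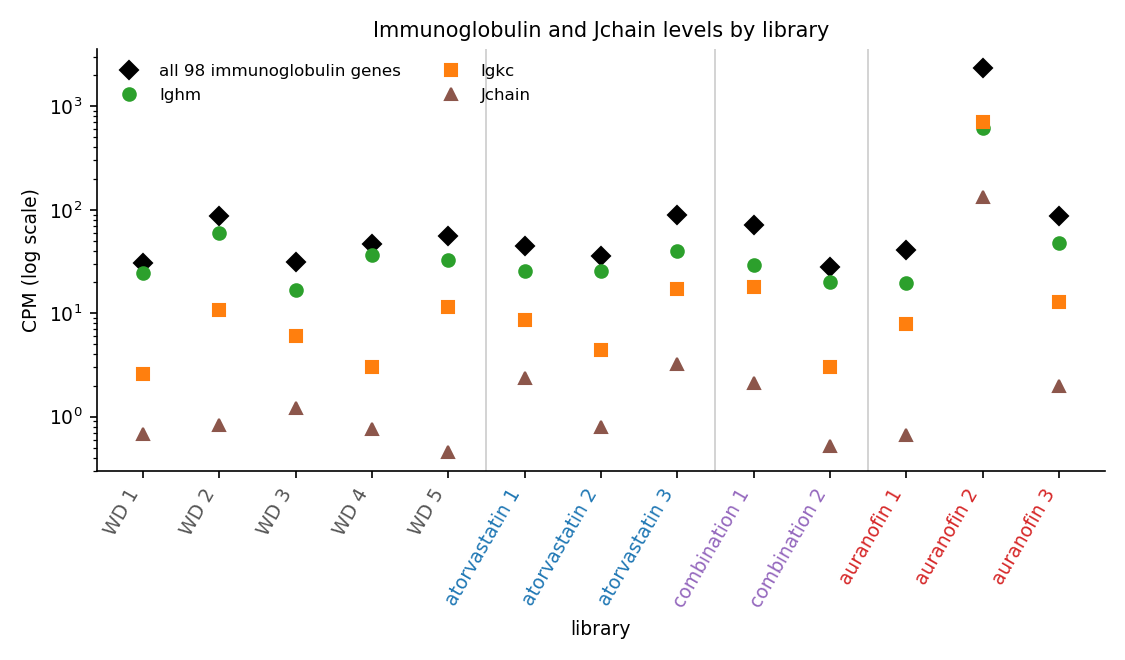
Summed level of the 98 immunoglobulin genes and levels of Ighm, Igkc and Jchain in each of the 13 libraries, in CPM at the TMM-scaled library size on a log axis; each point is 1 library and colours of the library names mark the groups. Auranofin 2 reached 2324 CPM in sum, and the other 12 libraries lay between 28.2 and 89.9 CPM.

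Ighm, the IgM heavy chain, was the main heavy chain transcript of every library. It stood at 24.4, 60.2, 16.8, 36.4 and 32.8 CPM in WD 1 to 5 and at 19.5, 619.9 and 47.4 CPM in auranofin 1 to 3. With atorvastatin it was 25.4, 25.5 and 39.9 CPM, and with the combination 29.3 and 20.1 CPM. Apart from auranofin 2, all values lay within 16.8 to 60.2 CPM, the range set by the WD libraries themselves. Ighd, the IgD heavy chain that accompanies IgM on resting B cells, had 8 to 51 counts in WD, 31, 298 and 74 with auranofin, 18, 32 and 97 with atorvastatin, and 65 and 18 with the combination.

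The switched isotypes, IgG and IgA, were scarce and uneven. Ighg2b had 0, 57, 30, 6 and 5 counts in WD 1 to 5, 49, 2665 and 10 in auranofin 1 to 3, 0, 6 and 99 in atorvastatin 1 to 3, and 92 and 4 in the combination. Ighg2c had 9, 5, 37, 11 and 5 counts in WD, 48, 2290 and 201 with auranofin, 1, 9 and 155 with atorvastatin, and 71 and 18 with the combination. These are the IgG2 subclasses, which bind activating Fc receptors and complement well. Ighg2c was the single heavy chain constant gene that all 3 auranofin libraries carried at more counts than any WD library. On the CPM scale, 1.45% of all genes tested had all auranofin libraries above all WD libraries.

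Ighg1, an IgG subclass known from type 2 responses, was seen almost in 1 library alone. Auranofin 2 had 907 counts of it, no other library had more than 7, and WD 1, WD 2, WD 4 and both combination libraries had 0, where a count of 0 allows up to 3. Ighg3 had 424 counts in auranofin 2 and at most 11 elsewhere. Igha, the heavy chain of mucosal IgA, followed another order: 361 counts in auranofin 2, 92 in combination 1, 58 in WD 5 and 22 or fewer in the rest. Combination 1 and WD 5 thus carried Igha beside few or no counts of Ighg1 and Ighg3.

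As shares of heavy constant counts, which are not corrected for gene length and so serve only to compare libraries, the switched isotypes made up 40.6% in auranofin 2 (exact Clopper-Pearson 95% interval 39.9% to 41.4%; intervals here cover counting error only). Next came combination 1 at 22.95% (20.5% to 25.5%) and atorvastatin 3 at 21.1% (18.9% to 23.4%). The lowest share was 0.434% in atorvastatin 1 (0.0895% to 1.26%). Auranofin 2 was therefore richer in switched transcripts than any other aorta beyond counting error, and not merely richer in antibody RNA. The group means were 7.77% ± 5.45 in WD (SD, n = 5), 8.18% ± 11.2 with atorvastatin (n = 3), 14.1% ± 12.5 with the combination (n = 2) and 24.3% ± 14.2 with auranofin (n = 3). The auranofin values of 17.4%, 40.6% and 14.9% overlapped the WD range, whose highest value was 16.1% in WD 3.

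Within the switched counts the mixture differed between libraries. In auranofin 2, Ighg2b took 16.3% of heavy constant counts, Ighg2c 13.5% to 14.5% (its 95% interval), Ighg1 5.55%, Ighg3 2.59% and Igha 2.21%. In combination 1, Igha and Ighg2b took 8.28% each and Ighg2c 6.39%. In WD 5, Igha alone took 7.55%, and Ighg2b and Ighg2c took 0.651% each. WD 2 had 57 Ighg2b counts beside 5 of Ighg2c, and auranofin 3 had the reverse order, 201 of Ighg2c beside 10 of Ighg2b.

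**Figure D2:**
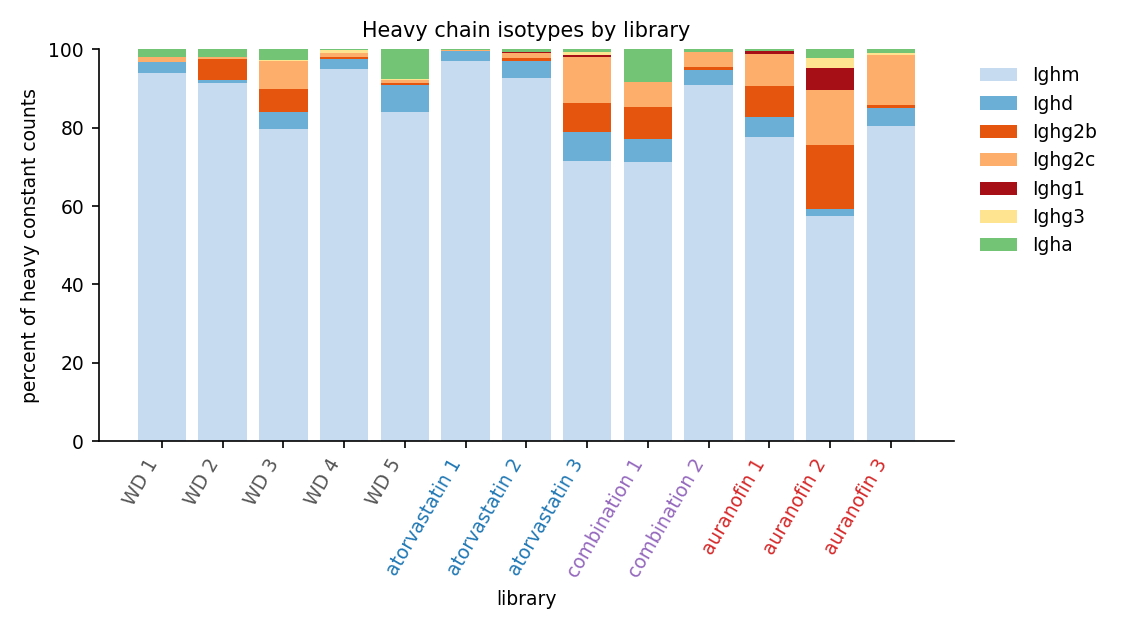
Share of each heavy chain constant gene among the heavy constant counts of a library, in percent, as stacked bars for the 13 libraries; colours of the library names mark the groups. Ighm and Ighd fill most of each bar, and the switched isotypes reach 40.6% in auranofin 2 and 0.434% to 22.95% in the other libraries.

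Igkc, the constant region of the kappa light chain, set auranofin 2 further apart than Ighm did. It stood at 2.61, 10.8, 6.01, 3.00 and 11.4 CPM in WD 1 to 5, 8.58, 4.44 and 17.3 CPM with atorvastatin, 17.8 and 3.02 CPM with the combination, and 7.93, 707 and 12.8 CPM in auranofin 1 to 3. There were 0.877 Ighm counts for each Igkc count in auranofin 2, against 1.64 in combination 1, the next lowest, and 12.2 in WD 4, the highest. The ratio was 6.55 ± 4.12 in WD (SD, n = 5). It differed more than 4-fold among the WD libraries, from 2.80 to 12.2.

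Kappa made up most of the light chain constant counts everywhere, as is usual in mice. Its share ran from 84.2% (74.04% to 91.6%) in combination 2 to 97.5% (97.2% to 97.8%) in auranofin 2. Lambda was thus highest in combination 2, at 15.8% of 76 counts, and in WD 5, at 13.5% of 260 counts. Iglc1, Iglc2 and Iglc3, the lambda constant genes, had 125, 119 and 33 counts in auranofin 2 and at most 12, 17 and 6 elsewhere. The lambda segment Iglv1 led all V segments of WD 5 with 20 of 84 V counts and those of combination 2 with 12 of 53, so constant and variable genes pointed to the same pair of libraries.

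Jchain, the gene most tied to secretion in this set, stood at 0.680, 0.841, 1.23, 0.767 and 0.456 CPM in WD 1 to 5. The values were 2.38, 0.797 and 3.23 CPM with atorvastatin, 2.11 and 0.520 CPM with the combination and 0.667, 134 and 1.97 CPM with auranofin. Per 1000 counts of constant genes there were 74.1 Jchain counts in auranofin 2 and 67.9 in atorvastatin 1, against 8.75 to 44.9 in the other libraries. Atorvastatin 1 thus paired a high Jchain ratio with the lowest switched share, its constant counts being almost all Ighm, Igkc and Ighd. Mzb1 had 7 counts in auranofin 2, 3 in auranofin 1 and 2 or fewer elsewhere, 21 in all, so it added little at this depth.

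The V segments of auranofin 2 were many, and no single one carried it. Its 7912 V counts were 78.5% of the 10,084 in all libraries, 85 of the 87 segments had 3 or more of them, and 77 of the 87 had their highest count there. Many segments met the summed-count rule through this library, so these numbers of segments follow in part from the rule. Among all V segments of the table, members or not, 125 had 3 or more counts in auranofin 2 and 53 in atorvastatin 3, the next highest. The leading kappa segments Igkv5-39 and Igkv10-96 had 693 and 689 counts of 5741 kappa V counts (12.1%, 11.2% to 12.9%, for the first). Its leading heavy segment, Ighv1-9, held 281 of 1975 heavy V counts (14.2%, 12.7% to 15.8%). It took 12 segments to reach 50% of its V counts and 46 to reach 90%.

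In the other libraries fewer segments were seen, and the V counts were fewer too. Atorvastatin 3 had 41 segments with 3 or more counts, auranofin 3 had 33, auranofin 1 had 28 and combination 1 had 20. WD 3 and atorvastatin 1 had 15 each, WD 2 and atorvastatin 2 had 13 each, WD 4 had 12 and WD 5 had 11. WD 1 and combination 2 had 6 each, from 49 and 53 V counts. No V segment had a count in all 13 libraries; Iglv1 and Igkv1-135 came closest, with counts in 12.

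Depth was set aside by computing how many segments a random draw of 100 V counts would hold, for libraries with at least that many. The expected number was 42.5 in atorvastatin 3, 42.2 in auranofin 2 and 41.8 in auranofin 1, all close to each other. It was 33.9 in auranofin 3 and 33.6 in WD 4. It was lower in combination 1 (28.8), WD 2 (23.1) and atorvastatin 1 (21.0). Among member segments at equal depth, auranofin 2 was thus about as varied as atorvastatin 3 and auranofin 1. It was more varied than the other 5 libraries deep enough to compare. The draw left out segments below the summed-count rule, which favours auranofin 2. Members held 7912 of its 8226 V counts, but 369 of 461 in atorvastatin 3 and 382 of 434 in auranofin 3. The order over all V segments was therefore not settled. Reads of the same transcript species are not independent draws of cells, so these numbers describe RNA and not clones.

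Several libraries with fewer counts were led by a heavy and a kappa segment that took large shares of their V counts. In atorvastatin 1, Igkv3-2 held 95 of 172 kappa V counts (55.2%, 47.5% to 62.8%) and Ighv1-26 held 54 of 86 heavy V counts (62.8%, 51.7% to 73.0%). In combination 1, Igkv13-84 held 80 of 209 kappa V counts (38.3%, 31.7% to 45.2%) and Ighv1-5 held 59 of 89 heavy V counts (66.3%, 55.5% to 76.0%). In auranofin 3, Igkv4-79 held 83 of 241 kappa V counts (34.4%, 28.5% to 40.8%) and Ighv1-18 held 52 of 120 heavy V counts (43.3%, 34.3% to 52.7%). The sequences of these segments are printed above, and the leading pair differed between these 3 libraries. Igkv4-79 had 1 count outside auranofin 3, in WD 4, whereas Igkv3-2 and Ighv1-26 had 137 and 186 counts in auranofin 2.

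Leading segments were also seen in WD, at fewer counts. WD 2 was led by Igkv8-19 with 34 of 103 kappa V counts and Ighv1-53 with 20 of 34 heavy V counts, and WD 4 by Igkv10-96 with 32 of 95 and Ighv1-26 with 18 of 43. WD 1 was led by Igkv5-48 with 12 of 34 kappa V counts. Of these, Igkv10-96, Ighv1-26 and Ighv1-53 had more counts in auranofin 2 (689, 186 and 107), and Igkv8-19 had 5 there. Outside auranofin 2, 38 V segments had 20 or more counts, and 13 of them had over 50% of those counts in 1 library. Atorvastatin 3 and auranofin 1 had no such leader: Igkv12-46 held 26 of 281 kappa V counts in the former (9.25%), and Igkv6-23 held 13 of 115 in the latter (11.3%). Leading kappa shares were also small in some libraries with fewer V counts. They were 10.0% in WD 5 (Igkv1-135, 4 of 40, level with Igkv10-96), 16.2% in WD 3 (Igkv1-110, 11 of 68) and 17.5% in atorvastatin 2 (Igkv17-121, 11 of 63).

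**Figure D3:**
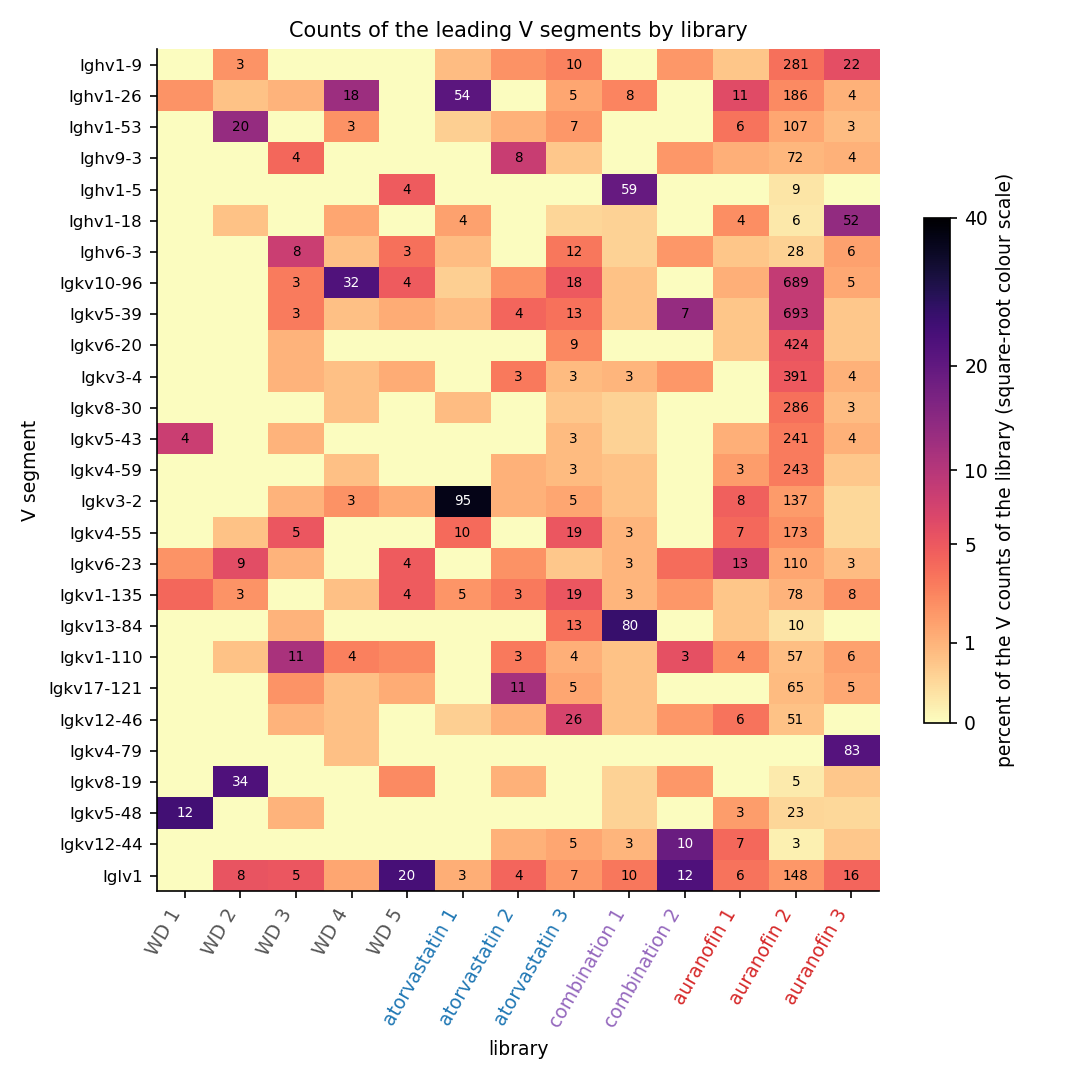
Counts of the 12 V segments with the largest sums and of the leading heavy and kappa segments of each library (rows) in the 13 libraries (columns); colour gives the percent of the V counts of a library on a square-root scale, and the printed numbers are counts of 3 or more. Atorvastatin 1 (Igkv3-2, 95 counts), combination 1 (Igkv13-84, 80 counts) and auranofin 3 (Igkv4-79, 83 counts) each have a dark cell of their own, while auranofin 2 spreads its counts over most rows. Auranofin 2 holds 53.9% to 97.0% of the counts of each of the 12 segments with the largest sums. Its spread over rows thus follows in part from how the rows were chosen.

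The comparison of auranofin with WD asks whether the drug changed antibody RNA, and it rested on auranofin 2. The mean log2 summed immunoglobulin CPM (pseudocount 1 CPM) was 7.67 ± 3.09 with auranofin (SD, n = 3) and 5.57 ± 0.61 in WD (n = 5), a difference of 2.10. Without auranofin 2 the difference was 0.34. Of the 100 members other than Ighmbp2, 34 passed the low-count filter: 6 heavy and 3 light constant genes, Jchain, and 5 heavy, 18 kappa and 1 lambda V segments. Without auranofin 2 only 16 passed, so many were tested because of their level in that library and their counts below are a description. None of the 34 passed an adjusted p of 0.05 (edgeR's quasi-likelihood test, Benjamini-Hochberg over 18,055 genes, of which 0% passed; smallest adjusted p 0.671).

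At an unadjusted p under 0.05, 30 of the 34 were higher with auranofin and 0 lower, beside 2.71% of all genes tested higher and 3.79% lower. The median log2 fold change of the 34 was 4.16, and that of all genes −0.041. Without auranofin 2, 1 of 16 was higher, Ighg2c, beside 0.74% of all genes, and the median of the 16 was 0.53. Ighg2c was also the 1 member of the 34 whose auranofin libraries all lay above all WD libraries, at 2.00, 151 and 7.49 CPM against 0.254 to 1.51 CPM; 1.45% of all genes tested did so.

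Among the constant genes and Jchain, the fitted log2 fold changes were largest in the IgG genes. Ighg3 stood at 6.56 (SE 1.63), Ighg2c at 6.54 (SE 1.43) and Ighg2b at 5.93 (SE 1.80), and Jchain at 5.82 (SE 1.26). Without auranofin 2, Ighg2c stood at 3.06 (SE 1.17; edgeR's adjusted p 0.737), Ighg2b at 0.28 and Jchain at 0.73, and Ighg3 no longer passed the filter. Ighg2c thus kept the largest fold change of these genes without auranofin 2, and its adjusted p did not pass in either fit.

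Igkc had a log2 fold change of 5.17 (SE 1.22), or 0.62 without auranofin 2. The IgM and IgD genes were lower on this scale, Ighm at 2.75 (SE 0.80) and Ighd at 2.79 (SE 0.84), and without auranofin 2 Ighm was at −0.028 and Ighd at 0.84. Igha stood at 2.91 (SE 1.33) and turned to −1.70 without auranofin 2. The lambda genes Iglc1 and Iglc2 stood at 3.78 (SE 1.34) and 2.99 (SE 1.19), and Iglc2 was at −0.32 without that library. Iglc1 no longer passed the filter without auranofin 2. For the other genes of this paragraph, leaving out this 1 library removed most of the difference, and it turned the sign of 3 of them.

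**Figure D4:**
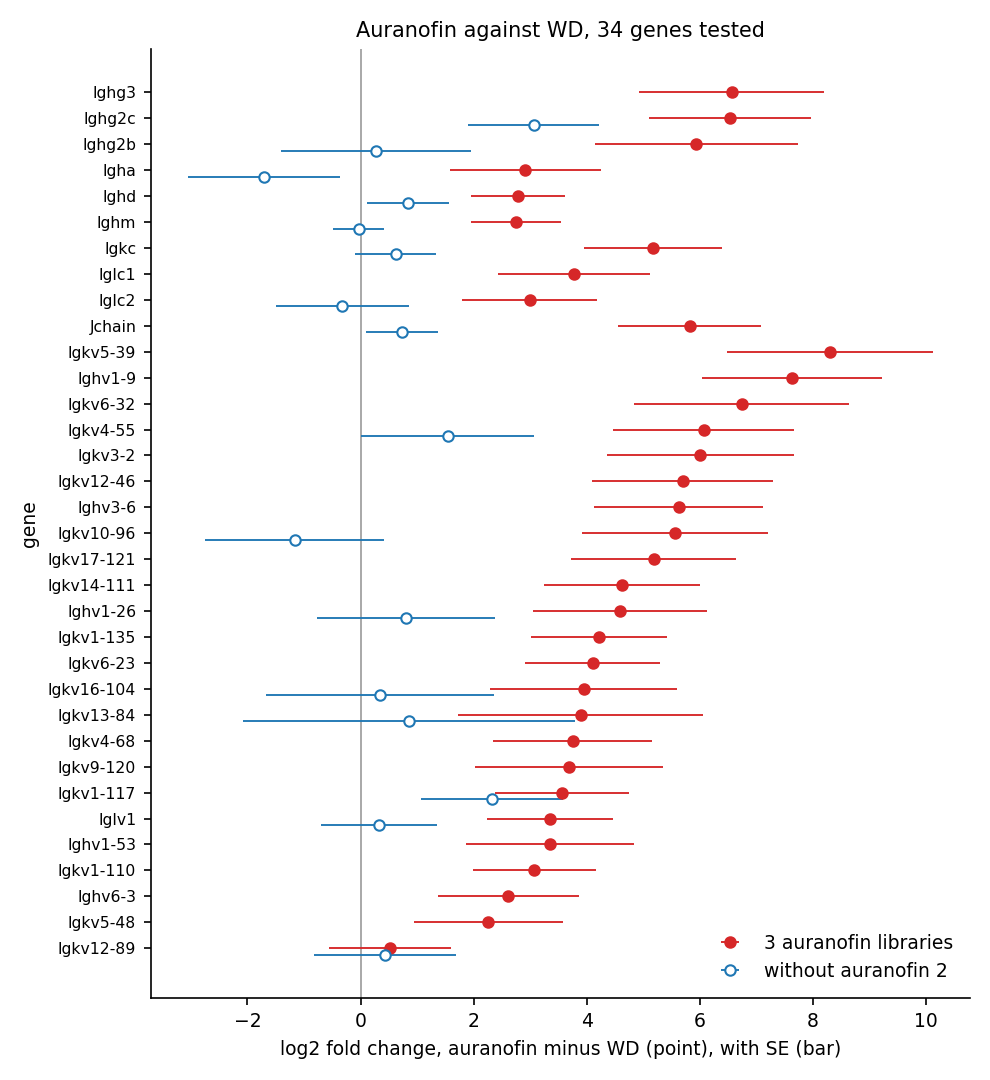
Log2 fold change of auranofin against WD (points) with SE (bars) from edgeR for the 34 genes tested, with all 3 auranofin libraries (filled red) and without auranofin 2 (open blue, 16 genes that still passed the filter). The filled points lie above 0 for all 34 genes with a median of 4.16, and the open points have a median of 0.53.

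The settings of the test changed the count of calls. Without the low-count filter, edgeR called 13 of 34,567 genes (0.0376%), of which 12 were members: Igkc, Ighg1, Ighg2c, Jchain, Ighv1-9, Ighv8-8, Igkv3-4, Igkv4-59, Igkv5-39, Igkv5-43, Igkv6-20 and Igkv8-30. DESeq2 called 2 of 18,019 genes (0.0111%), among them Ighg2c, and gave no p-value to 13 of the 34 members. Without auranofin 2, 0% of genes and no member passed in either (0 of 34,281 without the filter and 0 of 17,957 in DESeq2), and at an unadjusted p under 0.05 there were 11 of 98 members without the filter (4.04% of all genes) and 0 of 16 in DESeq2 (4.55%). limma with sample quality weights called none of the 34 (0% of all genes), and 7 were at an unadjusted p under 0.05, beside 9.47% of all genes. It put Ighm at 0.48 and Igha at −0.39.

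With atorvastatin, the summed level of 1 library, atorvastatin 3, lay above the WD range, at 89.9 against at most 86.7 CPM. On library totals the gap was wider, at 90.1 against at most 57.6 per 1,000,000 counts. The mean log2 summed CPM was 5.74 ± 0.68 (SD, n = 3), 0.17 above WD (0.39 with library totals in place of TMM), which is less than the SD of either group. None of the 34 genes passed (0% of all genes; smallest edgeR adjusted p 0.340), and none had all atorvastatin libraries above all WD libraries, beside 2.83% of genes tested. At an unadjusted p under 0.05, 2 were higher and 0 lower, beside 4.19% of all genes higher and 10.5% lower. They were Igkv3-2 at a log2 fold change of 4.75 (SE 1.66) and Igkv12-46 at 4.12 (SE 1.69). Igkv3-2 had 95 counts in atorvastatin 1 and 1 and 5 in the others, and Igkv12-46 had 26 counts in atorvastatin 3 and 1 each in the others, so each was the leading kappa segment of 1 library. Without auranofin 2 neither passed the filter. Jchain (1.42, SE 0.56, edgeR's adjusted p 0.314) and Igkv4-55 (2.78) were then the 2 of 16 members at an unadjusted p under 0.05. Beside them, 945 of all 17,979 genes were higher at that p and 1896 lower. With auranofin 2 in the fit, the log2 fold change of Jchain was 1.41 (SE 1.22).

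With the combination, the mean log2 summed CPM was 5.52 ± 0.92 (SD, n = 2), a difference from WD of −0.054 that became 0.18 with library totals in place of TMM. None of the 34 genes passed (0% of all genes; smallest edgeR adjusted p 0.997). Igkv13-84 was the 1 member at an unadjusted p under 0.05, higher, beside 0.947% of all genes higher and 0.521% lower. Its log2 fold change of 6.76 (SE 1.88) came from 80 counts in combination 1, with 0 in combination 2. Igkv12-46 had both combination libraries above WD, beside 1.54% of genes, but with 2 and 1 counts against 0 or 1. Without auranofin 2, Igkv16-104, a member singled out after its values were seen, also came under an unadjusted p of 0.05. That made 2 of 16 members, both higher, beside 172 higher and 101 lower of all 17,979 genes. The WD libraries are shared by these comparisons.

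Over the whole layout, an additive model gave each drug a term. None of the 34 genes passed for auranofin (0% of all genes) or for atorvastatin (0%). For auranofin 18 were at an unadjusted p under 0.05, all higher, beside 1.89% of all genes higher and 0.798% lower. Without auranofin 2 none of 16 were, beside 94 higher and 70 lower of all 17,979 genes. For atorvastatin 1 was higher and 3 lower, beside 2.84% higher and 4.24% lower. The higher one was Igkv13-84, the lower ones Igkv5-48, Igkv6-23 and Igkv12-89. Without auranofin 2 it was 2 of 16 higher and 0 lower, beside 294 higher and 269 lower of all 17,979 genes. The median turned from −0.89 over 34 genes to 0.40 over 16. The difference between the auranofin effect with and without atorvastatin was tested as an interaction, which none of the 34 passed (0% of all genes; smallest edgeR adjusted p 0.791; 19 were at an unadjusted p under 0.05, beside 3.1% of all genes). Without auranofin 2, none of 16 passed (0% of all genes) and 1 was at an unadjusted p under 0.05, beside 3.04% of all genes. Neither DESeq2 nor limma called a member in the atorvastatin or combination comparison or for either term.

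The genes that make a B cell or a plasma cell were then read from fixed lists. In the B cell list, all 15 genes were fitted higher with auranofin and none passed the adjusted test. At an unadjusted edgeR p under 0.05 there were 6, beside 2.71% of all genes higher, and 0 without auranofin 2 (0.74%). Without that library, 10 of the 15 were fitted higher and 5 lower. The median log2 fold change was 1.57, or 0.056 without auranofin 2. The list summed to 141 CPM in auranofin 2 and to 11.2 to 53.7 CPM elsewhere. Cd79a, the signalling chain of the B cell receptor, stood at 22.0 CPM in auranofin 2 and at 0.608 to 4.77 CPM in the others. Ms4a1 (CD20), a surface protein of B cells that plasma cells largely lose, stood at 10.4 CPM there and at no more than 2.44 CPM elsewhere.

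The summed plasma cell list did not set auranofin 2 apart, though single genes of it did. It summed to 458 CPM there and to 429 to 693 CPM elsewhere, and 0 of 17 tested genes passed the adjusted test with auranofin. At an unadjusted edgeR p under 0.05, 2 were higher, beside 2.71% of all genes, and 0 without auranofin 2 (0.74%). Of the 17, 11 were fitted higher and 6 lower, with a median log2 fold change of 0.16, or 0.29 without auranofin 2. Many of its genes work in secretion in other cells too. Xbp1, which drives the secretory program, stood at 124 CPM in auranofin 2 and at 95.7 to 183 CPM elsewhere, Prdm1 (BLIMP-1) at 1.78 against 0.180 to 1.94 CPM, and Irf4 at 7.58 against 1.63 to 11.1 CPM. The 2 genes were Pou2af1, a coactivator of octamer-dependent antibody transcription, and Derl3, and these and the next were singled out after their values were seen. Pou2af1 stood at 5.204 CPM in auranofin 2 and at 0.110 to 1.30 CPM in the others, and Derl3 at 2.04 against 0.189 to 1.38 CPM. Cd28 and Eaf2 were also highest in auranofin 2, at 3.36 and 1.71 CPM against at most 1.79 and 1.27 CPM. Tnfrsf13b was so only barely, at 5.34 against 5.28 CPM. Tnfrsf17, singled out in the same way, was not: it stood at 0.593 CPM there and at 1.26 CPM in WD 2. The secretory machinery of the endoplasmic reticulum summed to 1604 CPM in auranofin 2, the lowest value, and to 1615 to 2461 CPM elsewhere, and none of its 12 genes passed.

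The list of germinal centre genes, named for the sites where B cells mutate and select their antibodies, summed to 64.5 CPM in auranofin 2 and to 43.9 to 104.8 CPM elsewhere. Precursor genes such as Rag1 stood at 0.263 CPM in auranofin 2 and at 4.05 and 6.67 CPM in WD 3 and auranofin 1. In the lists of survival and homing factors and of Fc receptors, 0 of 9 and 0 of 8 tested genes passed with auranofin, with medians of −0.27 and −0.043. No gene of any of these lists passed an adjusted p of 0.05 in any of the 5 fits.

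Summed markers of some other tissues were also highest in auranofin 2 on the TMM scale. The T cell list summed to 42.1 CPM there and to 5.52 to 17.98 CPM elsewhere. All 10 genes were fitted higher with auranofin and 2 were at an unadjusted edgeR p under 0.05, beside 2.71% of all genes higher. Without auranofin 2, 5 were fitted higher and 5 lower with a median of 0.079, and 0 were at that p (0.74% of all genes higher). The list of lymph node stroma and high endothelial venules, the vessels by which lymphocytes enter lymph nodes, summed to 73.1 CPM against 6.28 to 46.1 CPM, with 3 of 4 tested genes fitted higher and a median of 1.30, or −0.48 without auranofin 2. Its first gene, Glycam1, a ligand for lymphocyte homing, stood at 13.9 CPM against 0.0409 to 1.80 CPM. Madcam1 stood at 0.198 CPM against 0 to 0.114 CPM, a few counts at most in any library, so its order says little. Chst4 at 0.395 CPM lay inside the range of the others, 0 to 1.18 CPM. This list shares genes with the B cell list and the list of survival and homing factors, so it is not separate from them. The adipocyte list summed to 4645 CPM in auranofin 2 and 305 to 3154 CPM elsewhere, and the epithelial list to 25.03 CPM against 8.59 to 21.8 CPM. The low TMM factor of auranofin 2 (0.629) raises its CPM. On library totals its epithelial sum would lie below that of WD 1 (21.7 CPM, TMM factor 1.23). Its adipocyte sum would lie below that of combination 2 (3154 CPM, TMM factor 1.08). For these 2 lists the top place of auranofin 2 thus depends on the scaling. The T cell and lymph node sums were not recomputed on library totals. Of the 6 epithelial genes tested, 3 were fitted higher with auranofin and 3 lower, with a median of −0.011. The adipocyte median was 1.07, or 0.77 without auranofin 2. Whether these tissues contributed the antibody transcripts was not tested.

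**Figure D5:**
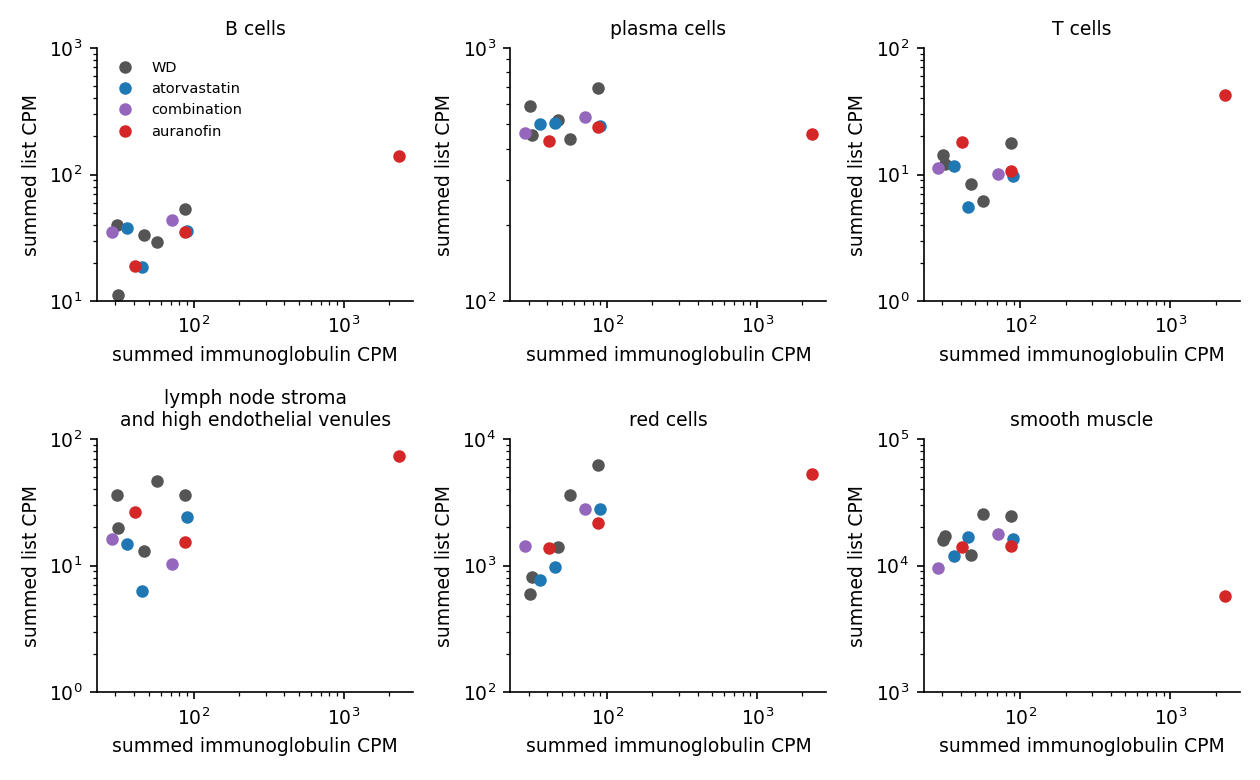
Summed CPM of 6 fixed gene lists (vertical axes, log scale) against summed immunoglobulin CPM (horizontal axes, log scale) in the 13 libraries; each point is 1 library, coloured by group. The point at 2324 CPM is auranofin 2, which is highest for B cells (141 CPM), T cells and lymph node genes, lowest for smooth muscle (5754 CPM), and inside the range of the others for plasma cells and red cells.

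Among genes outside the set, those whose level ordered the 13 libraries most like the summed immunoglobulin CPM included 3 genes of red cells. The Spearman rho was 0.852 for Hbb-bt and 0.846 for Hbb-bs, the adult beta globins, and 0.797 for Alas2, an enzyme of heme synthesis in red cells. Cd79a reached 0.830. The other 6 of the 10 highest among 13,225 genes were Sugt1, Zfp119b, Chn2, Pir, Cdc42ep2 and Rpl27a-ps4, from 0.791 to 0.835. Without auranofin 2 the rho of the 3 red cell genes was 0.825, 0.818 and 0.741. The libraries share their scaling and these genes were picked as the highest of many, so the values describe an order only. Red cell genes summed to 5311 CPM in auranofin 2 and to 6231 CPM in WD 2, the 1 library above it, and their part in the antibody counts was not tested.

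The octamer ATGCAAAT, known from V and other B cell promoters, was searched on both strands in windows from 250 bases before to 50 bases after the gene start (RefSeq, GRCm38.p6), a table that matched 2 of the 101 members by symbol, Jchain and Ighmbp2. It occurred in 1.74% of 32,851 windows and not in the 1 window of Jchain.

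At the edge of the rule, the members with the fewest counts were Ighv2-6 and Igkv4-57 with 20 each and Ighv1-71, Ighv14-3 and Mzb1 with 21 each. Just outside lay Ighv1-50, Ighv10-3 and Igkv6-17 with 19 each. All 8 had their highest count in auranofin 2, from 7 of 21 in Mzb1 to 19 of 20 in Ighv2-6. Not every gene with a sum of 15 to 24 did. Ighv1-4 was highest in auranofin 1, Ighv1-69 in atorvastatin 3, Ighv2-9 in combination 1 and Ighv5-17 in auranofin 3.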

How the data were processed

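The authors deposited raw counts per gene for 56,953 genes and 13 libraries, and these counts were used as they stood. Per the submitters' processing notes, the tools were STAR 2.6.1d and Subread 1.6.3 (which holds featureCounts), and the genome build was GRCm39; per the labels' protocols, the libraries were poly-A selected and carried no strand information. No pair of libraries agreed within sampling noise (smallest chi-square 16.2 per degree of freedom). The closest V segments are near copies, as given above, and overlapping or antisense genes cannot be told apart.

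CPM values use TMM-scaled library sizes. Tests used edgeR 4.0.16 in R 4.3.3 (quasi-likelihood, two-sided, 1 mean per group over all 13 libraries, filterByExpr, Benjamini-Hochberg over all genes tested); the code was tested on simulated data. The SE of a log2 fold change is its size divided by the root of F. Alternatives were DESeq2 1.42.0, limma 3.58.1, other scaling, filters and thresholds, the replicate number as a block, and leaving out each library.

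The members and gene lists were chosen with earlier results of these data known. Genes named were the constant genes, Jchain and Mzb1, the 12 largest V segments, each library's leading heavy and kappa segments (with 20 or more V counts of the locus), members past the threshold, edge members, the first 3 genes of a list, and the 10 most similar genes; others are said to be singled out. Sequences are from GENCODE M21 (GRCm38), matched by symbol, so no positions are given. Some genes of the fixed lists are not reported here.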

Additional observations from a re-analysis of the deposited data

Results flagged for a closer look

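In the group of 5 WD libraries, 19 quantities were checked for a library far from the others (gap over range above 0.71), and 2 had one. WD 3 had the highest Ighg2c, at 1.51 CPM, with 0.882 of the whole range between it and the next library. WD 5 had the highest Ighd, at 2.59 CPM, with 0.760 of the range. Chance alone gives about 1 in 20 such checks. Auranofin 2 belongs to a group of 3, which this check does not cover.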

How the results depend on the processing

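Of 94 recomputed counts of member genes past the threshold, 92 were 0, the value reported. The other 2 were in auranofin against WD, 1 with DESeq2 and 12 without the low-count filter, and both became 0 without auranofin 2, an alternative added after seeing the data. Leaving out each library in turn gave 0 in every comparison. Replicate numbers are shared between groups, but same-numbered libraries did not deviate together in every pair (r from −0.265 to 0.516), so the pairing rests on a number alone. With the replicate number as a block, 0 member genes passed in each of the 5 fits. The count at an unadjusted p under 0.05 for auranofin against WD went from 30 to 14 of 34. The share of all genes at that p was not computed with the block, so the 14 cannot be judged against it. The differences in mean log2 summed immunoglobulin CPM moved by less than the spread between replicates under the 5 scaling, pseudocount and gene choices; leaving out libraries gave 0.34 to 3.24 for auranofin, −0.21 to 0.44 for atorvastatin and −0.70 to 0.60 for the combination. Of 225 recomputed single-gene log2 fold changes, 12 changed sign. Leaving out single libraries gave −0.028 to 3.29 for Ighm, −1.70 to 3.73 for Igha, −0.32 to 3.66 for Iglc2 and −1.38 to 8.14 for Igkv13-84, where combination 1 decides the sign. Igha was −0.39 in limma. Without auranofin 2 and without the filter, Ighm was −0.017, Igha −1.69, Iglc1 −0.38 and Iglc2 −0.32; without it in DESeq2, Ighm was −0.054, Igha −1.79 and Iglc2 −0.39. The median number of V segments was 15 with a minimum of 3 counts, 39 with a minimum of 1 and 3 with a minimum of 10. Depth limits the V segments: 5 libraries had under 100 V counts. The interaction without auranofin 2, also added after seeing the data, gave 0 member genes.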
